A study of Mus musculus with 21 samples.

Results

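The p200 genes are a family of interferon-inducible genes that lie side by side on mouse chromosome 1. Members were chosen by name: Ifi203, Ifi204, Ifi206, Ifi207, Ifi208, Ifi209, Ifi211, Ifi213 and Mndal, each found once in the deposited table through its Ensembl identifier, which makes 9 of 55487 genes. Their RNA was followed in microglia, the resident macrophages of the brain, isolated by flow cytometry from the striatum of adult male mice. The design crossed 2 factors, the mother's history and an injection given in adulthood. CON mice were offspring of control dams and MIA mice offspring of dams with maternal immune activation, an immune challenge during pregnancy whose agent and timing the labels do not give. At 8 to 10 weeks of age each mouse received saline or lipopolysaccharide (LPS, an outer membrane component of gram-negative bacteria) by intraperitoneal injection, the latter at 4500 endotoxin units per gram, and cells were taken 18 hours later. All 4 groups shared the sort (live, CD11b positive, CD45 low, P2RY12 positive) and the poly(A)-primed Smart-Seq2 libraries, and the labels name no strain, genotype or transgene. P2RY12 was itself used to gate the cells. Litters are not named in the labels, and p-values therefore measure the spread between these samples only.

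The comparisons rested on 19 libraries of sequencing batch 1, 6 from control mice given saline, 5 from control mice given LPS, 5 from MIA mice given saline and 3 from MIA mice given LPS, with 9.85 to 19.0 M counts each. MIA LPS replicate 4 was alone in batch 2 (11.4 M) and was taken up by the batch term of the fit. MIA saline replicate 6 (5.29 M) carries the word excluded in its title and entered no comparison. In batch 1 a ribosomal RNA gene held 47.4% of the counts on average. All 10 microglial markers examined were detected in every group, and 9 of them fell after LPS in each maternal group, their sum from 15759 ± 1772 CPM (counts per M counts of the scaled library; SD, n = 6) to 5647 ± 670 (SD, n = 5) in control offspring and from 15626 ± 1423 (SD, n = 5) to 5451 ± 1283 (SD, n = 3) in MIA offspring. The labels do not explain the second number of each mouse's ID, which took 6 values among the 11 control libraries and 3 among the 8 MIA libraries.

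As background, most p200 proteins join a pyrin domain, which pairs with other pyrin domains, to a HIN domain, which binds double-stranded DNA. Members act as sensors of foreign or misplaced DNA and as nuclear regulators of growth, differentiation and transcription in myeloid cells. Ifi204 encodes p204, often treated as a mouse counterpart of human IFI16, which senses DNA and feeds the STING pathway to type I interferon. Mndal encodes a nuclear protein named after the human myeloid cell nuclear differentiation antigen. Type I interferon induces many genes through the ISRE, a promoter element of interferon-stimulated genes, and LPS sets off type I interferon release through TLR4 and the adaptor TRIF.

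The genes filled a stretch of 474 kb, chr1:173468485-173942672 (GRCm38, GENCODE M21). In chromosome order they were Ifi206 (chr1:173468485-173491041, minus strand), Ifi213 (chr1:173566283-173599274, minus) and Ifi209 (chr1:173630917-173647928, plus). Next came Ifi208 (chr1:173673675-173698395, plus), Ifi207 (chr1:173723427-173741747, minus) and Ifi204 (chr1:173747293-173766943, minus). The last stretch held Mndal (chr1:173849126-173942491, minus), whose span covers all of Ifi211 (chr1:173896345-173913046, minus) and most of Ifi203 (chr1:173920407-173942672, minus) on the same strand. All 9 are annotated as protein coding. Another 8 rows of the table lay in the interval, Ifi214 and pseudogene or microRNA loci, and of these Ifi214 had the most counts, 96 over 20 libraries.

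Promoter stretches are shown because they hold a short run that most members have in common. RefSeq windows (GRCm38.p6) of 250 bases before to 50 after an annotated start were found for 8 of the 9 members, and none was matched for Ifi204. Both strands were searched for the ISRE core GAAANNGAAA. It was present in 7 of the 8 members, in 8 of their 10 windows and in 3.43% of 32817 windows of all genes. A window of Ifi203 at chr1:173942623-173942922 had no core, and the Ifi203 excerpt below comes from another window. Each excerpt below has 50 bases, 5′ to 3′ on the strand of its gene, with the run in capitals.
Ifi206 (chr1:173491329-173491378, minus): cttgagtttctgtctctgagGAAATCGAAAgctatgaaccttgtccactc
Ifi213 (chr1:173599316-173599365, minus): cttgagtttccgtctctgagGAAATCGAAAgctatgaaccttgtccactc
Ifi208 (chr1:173673587-173673636, plus): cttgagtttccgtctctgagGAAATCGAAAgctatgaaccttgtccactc
Ifi203 (chr1:173942498-173942547, minus): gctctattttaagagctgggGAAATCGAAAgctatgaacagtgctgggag
Ifi207 (chr1:173741821-173741870, minus): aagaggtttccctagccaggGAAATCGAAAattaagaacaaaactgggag
Ifi211 (chr1:173913054-173913103, minus): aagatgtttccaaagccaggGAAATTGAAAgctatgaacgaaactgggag
Ifi209 (chr1:173630760-173630809, plus): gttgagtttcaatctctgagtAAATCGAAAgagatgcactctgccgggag

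The core began 35 to 73 bases before the annotated start in these genes. The exact run GAAATCGAAA, a special case of the core the commonest among the members and searched for that reason, was in 6 of the 8 members (Ifi203, Ifi206, Ifi207, Ifi208, Ifi213 and Mndal) and in 16 of the 32817 windows (0.0488%), of which 9 belonged to genes outside the family. Ifi211 had another form of the core, and Ifi209 had none but carried the shorter run AAATCGAAA, which was in 0.125% of windows, beginning 78 bases before its start. Beyond the members, the p200 gene Ifi214 also had the full run GAAATCGAAA in its window. The Ifi213 and Ifi208 excerpts were identical at 50 of 50 positions, and Ifi206 matched them at 49. The stretch of Mndal, not printed because it overlaps a noncoding exon part of Mndal in GENCODE, was identical to that of Ifi203 at 50 of 50 positions. Ifi207 and Ifi211 were identical at 42, and Ifi209 and Ifi206 at 35. The Ifi211 excerpt lies in an intron of Mndal and the Ifi203 excerpt in an intron of a longer Ifi203 transcript, while the others lie outside annotated genes. The GAS element TTCNNNGAA, searched on both strands, was in 8.29% of all windows and in 0 of the 8 members. These letter matches describe the windows and are not evidence of binding.

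The copies also share transcript sequence, which limits how reads can be told apart. Of the distinct 50-base words in the GENCODE transcripts of Ifi211, 72.8% also occurred in another p200 gene, most of them in Ifi205 (44.7%), Ifi204 (30.1%) and Mndal (17.1%). For Ifi209 the share was 33.4%, all of it with Ifi214. The remaining members ran from 25.6% in Ifi206 down to 5.39% in Ifi207, with Ifi204 at 19.2%. The deposited values are estimated counts, in which a read that fits several genes can be split, and 75 of the 171 member values above 0 (43.9%) were not whole numbers, against 18.9% of all values above 0. Ifi211 had such values in 17 of 21 libraries and Ifi204 in 15, whereas Ifi207 had 1 and Ifi203 had 0. Levels of Ifi211, and to a lesser degree Ifi209 and Ifi206, are therefore uncertain, as are those of the overlapping Mndal, Ifi211 and Ifi203, since the sharing of multiply mapping reads and the use of strand were not given in the sources used here.

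**Figure D1:**
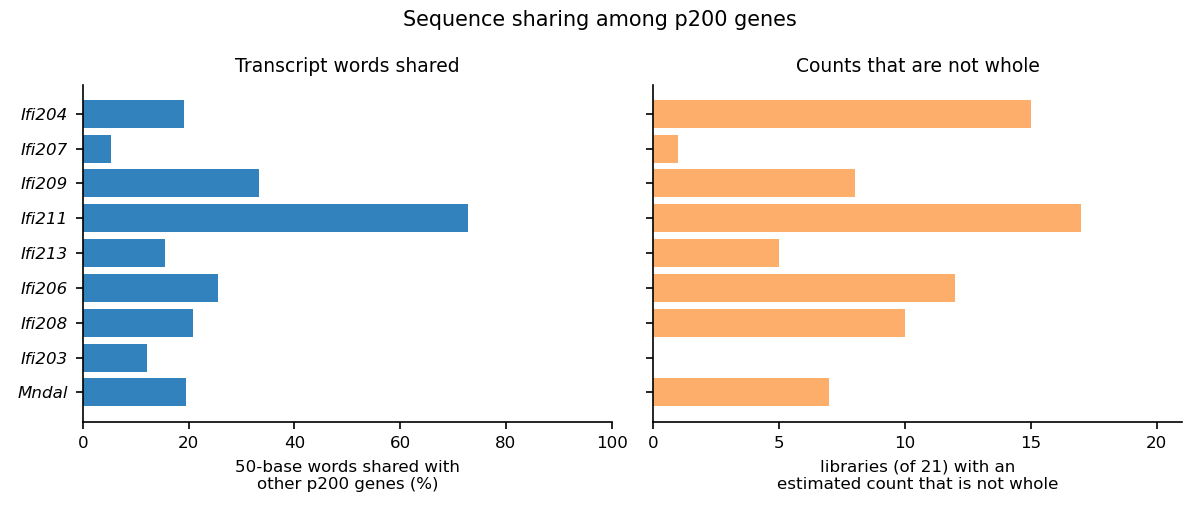
Percentage of each gene's distinct 50-base transcript words that also occur in another p200 gene (left) and the number of the 21 libraries in which the estimated count was not a whole number (right). Ifi211 has the longest bar in both panels (72.8% and 17 libraries), while Ifi207 shares 5.39% and had 1 such library.

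The first comparison asked how LPS given in adulthood changed the family in control offspring. Of the 9 genes 7 were low after saline and rose after LPS, while Ifi203 and Mndal were not called. The 9 genes summed to 13.1 ± 3.52 CPM (SD, n = 6) in control saline libraries, from 9.03 to 18.7, and to 393 ± 48.1 (SD, n = 5) in control LPS libraries, from 342 to 459. Of the 9 members 7 passed the filter on low counts, and all 7 were higher after LPS by edgeR's quasi-likelihood test at an adjusted p under 0.05, beside 44.6% of the 14741 genes tested that were called, 23.3% higher and 21.3% lower. In all 7 every LPS library lay above every saline library, which held for 15.1% of genes tested. The median log2 fold change of the 7 was 4.67, and that of all genes tested was -0.0033. Ranked by rise among all genes tested, the 7 stood between place 32 (Ifi211) and place 224 (Ifi209). Ifi204, Ifi207 and Ifi209 had counts to spare in saline libraries, whereas Ifi206 and Ifi213 reached the filter's level of 0.733 CPM in only 4 of 11. Ifi208 and Ifi211 reached it in 0 of 11 saline libraries and passed only through LPS libraries. Passing in that way favours genes that differ, so the calls of Ifi208 and Ifi211 are no independent support.

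Ifi204, the DNA sensor gene, had the highest mean level of the family per length in each group. Its level in control saline libraries ran from 3.22 through a median of 4.78 to 7.16 CPM, and in the 5 control LPS libraries, in replicate order, it was 177, 207, 170, 153 and 160 CPM. The LPS values stayed within a narrow band and none came near a saline value. Ifi204 rose 35.5-fold (95% interval 25.4 to 49.8), a log2 fold change of 5.15 ± 0.23 (SE; edgeR adjusted p = 4.23e-14).

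Ifi207, the member with the least sequence in common with its neighbours, showed a larger ratio from a lower start. Control saline libraries ran from 0.935 through a median of 2.18 to 3.75 CPM, and the control LPS libraries had 130, 130, 100, 102 and 98.7 CPM. Replicates 1 and 2 stood above the other 3 LPS libraries, and the groups did not overlap. The rise was 48.9-fold (95% interval 33.6 to 71.2), a log2 fold change of 5.61 ± 0.26 (SE; edgeR adjusted p = 1.35e-13).

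Ifi209 was well detected after saline and had the smallest ratio of the 7. It ran from 2.77 through 3.91 to 5.01 CPM in control saline libraries and had 52.0, 70.4, 57.7, 55.4 and 42.6 CPM in control LPS libraries. Replicate 2 was highest and replicate 5 lowest, and no value met the saline range. It rose 14.4-fold (95% interval 9.99 to 20.8), a log2 fold change of 3.85 ± 0.26 (SE; edgeR adjusted p = 3.23e-11). The intervals of Ifi209 and Ifi204 did not meet.

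Ifi211 had the largest ratio of the family. Its 6 control saline libraries held 10 counts in all, with 0 to 0.200 CPM and a median of 0.126, while the control LPS libraries had 23.7, 24.1, 41.0, 25.1 and 18.8 CPM, 1841 counts together. Replicate 3 stood well above the other 4. The fitted rise was 221-fold (95% interval 136 to 358), a log2 fold change of 7.79 ± 0.34 (SE; edgeR adjusted p = 2.53e-15), and it rests on those 10 saline counts and on reads that can also fit Ifi205, Ifi204 or Mndal.

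The other 3 tested members were scarce after saline. Ifi213 ran from 0.134 through 0.472 to 1.07 CPM in control saline libraries and had 20.7, 12.3, 14.5, 7.24 and 10.3 CPM after LPS with replicate 1 highest, and rose by 4.67 ± 0.43 on the log2 scale (SE; edgeR adjusted p = 5.30e-09). Ifi206 ran from 0.310 through 0.540 to 0.844 CPM and had 7.96, 11.9, 9.86, 4.69 and 8.17 CPM after LPS, a log2 fold change of 3.94 ± 0.32 (SE; edgeR adjusted p = 2.17e-10). By the ratio of highest to lowest LPS library these 2 scattered most, and their groups did not overlap. Ifi208, the tested member with the fewest counts, had 0 counts in 2 of 6 control saline libraries and at most 0.486 CPM, in replicate 3. Its LPS values were 2.33, 3.01, 2.60, 2.08 and 1.68 CPM, and the log2 fold change was 4.01 ± 0.58 (SE; edgeR adjusted p = 2.91e-06). Without control saline replicate 3, which held 7 of the 12 saline counts, it was 4.94.

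Ifi203 and Mndal, which overlap each other at the end of the cluster, did not pass the filter. Ifi203 averaged 0.627 ± 0.411 CPM (SD, n = 6) in control saline and 0.630 ± 0.312 (SD, n = 5) in control LPS libraries, from 56 and 44 counts, and the ranges overlapped throughout. With no filter its log2 fold change was -0.0017 ± 0.68 (SE; edgeR adjusted p = 1.00), and the 95% interval, 0.389-fold to 2.57-fold, lies below the 9.99-fold lower bound of Ifi209. Its 56 saline counts were more than those of Ifi208 (12) and Ifi211 (10), which passed the filter only through LPS libraries. Mndal averaged 0.158 ± 0.202 CPM (SD, n = 6) and 0.437 ± 0.521 (SD, n = 5), from 14 and 29 counts. Of those 29 counts 17 came from control LPS replicate 5, at 1.36 CPM, and the other 4 LPS libraries lay at 0.108 to 0.268 CPM, within the saline range of 0 to 0.461. Its log2 fold change with no filter was 1.41 ± 1.00 (SE; edgeR adjusted p = 0.329). The interval of 0.672-fold to 10.5-fold holds no change as well as a large rise, so these counts do not settle whether Mndal rose. A promoter stretch of each holds the same run, GAAATCGAAA, as those of Ifi206, Ifi207, Ifi208 and Ifi213. The window of another annotated start of Ifi203 had no core. Any bearing of the run on these levels was not tested.

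**Figure D2:**
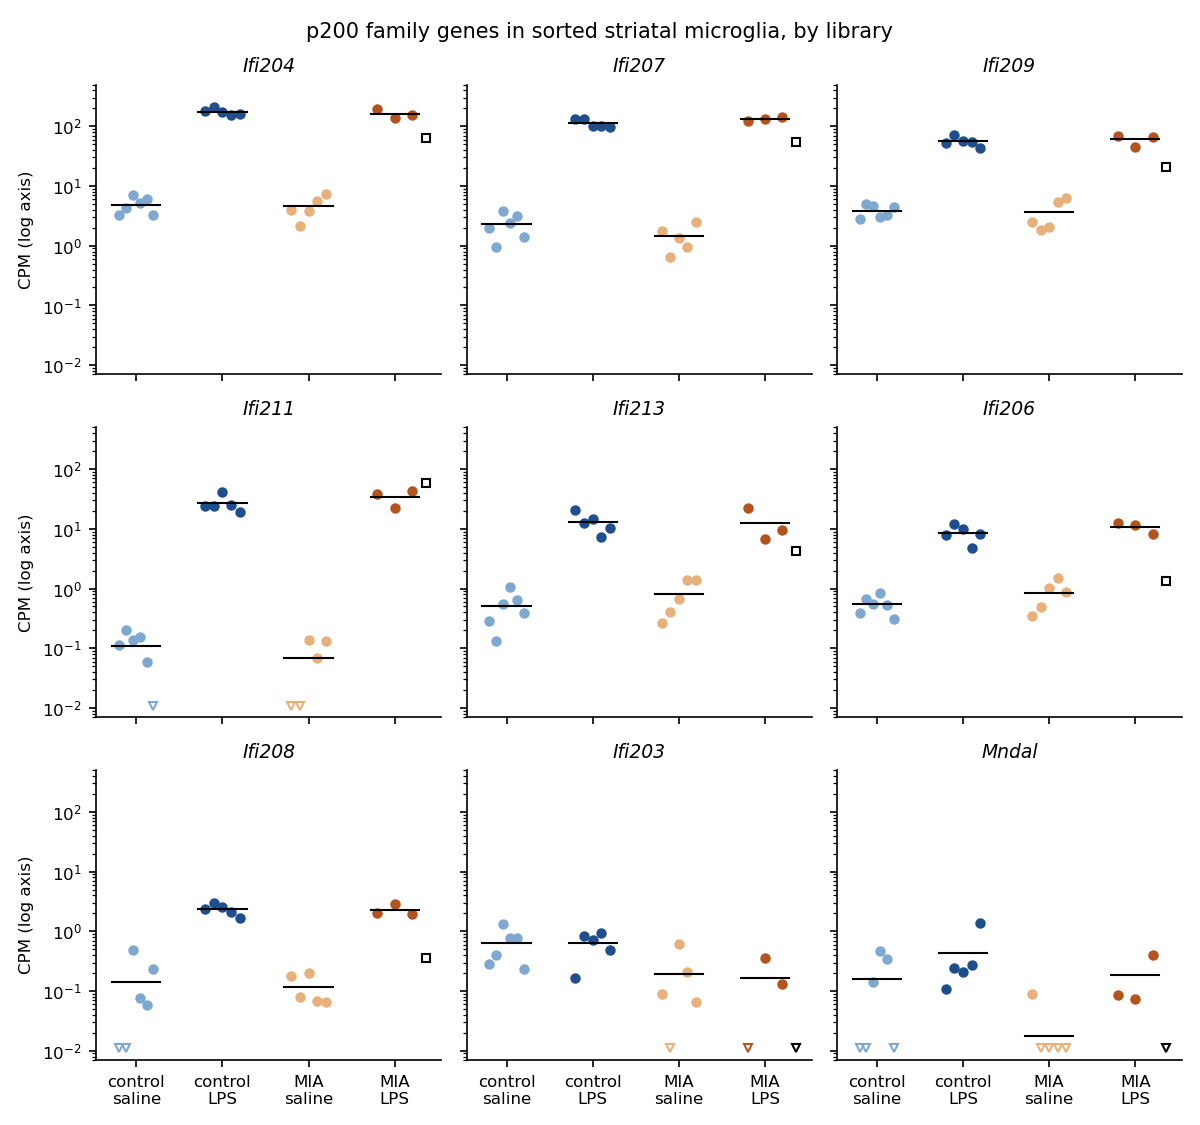
Level of each of the 9 genes in every library, in CPM on a log axis, for control mice after saline (6 libraries) and LPS (5) and MIA mice after saline (5) and LPS (3). Filled circles are batch 1 libraries, black lines their means, open triangles libraries at 0 (drawn at the foot of the axis), and the open square or black triangle the single batch 2 library. In 7 genes the batch 1 LPS libraries lie above the saline libraries of the same maternal group, and the groups overlap in Ifi203 and Mndal. The batch 2 library reaches the saline values in Ifi206 (1.32 CPM) and Ifi208 (0.360).

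The second comparison asked the same of MIA offspring, in 3 LPS and 5 saline libraries. Again all 7 tested members rose and no groups overlapped, beside 39.1% of the 14741 genes tested that were called, 20.8% higher and 18.3% lower, and 18.5% with every LPS library above every saline library. The family summed to 11.7 ± 5.20 CPM (SD, n = 5) after saline, from 5.62 to 18.8, and to 360 to 458 CPM, with a mean of 414 (n = 3), after LPS. The median log2 fold change of the 7 was 4.18, the value of Ifi208, and that of all genes tested was 0.02. Ifi208 and Ifi211 passed the filter only through LPS libraries, so their calls are no independent support here either. The members stood between place 24 (Ifi211) and place 270 (Ifi206) of all genes ranked by rise.

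Among MIA offspring Ifi204 had 4.03, 2.17, 3.85, 5.58 and 7.46 CPM after saline and 193, 140 and 152 CPM after LPS, a log2 fold change of 5.11 ± 0.27 (SE; edgeR adjusted p = 7.94e-13). Ifi207 had 1.75, 0.643, 1.35, 0.964 and 2.53 CPM after saline and 120, 132 and 144 after LPS, a log2 fold change of 6.49 ± 0.31 (SE; edgeR adjusted p = 4.15e-13). For both genes the saline libraries of MIA mice differed among themselves by a larger factor than the LPS libraries did. Ifi209 had 2.45, 1.85, 2.09, 5.37 and 6.26 CPM after saline, where replicates 4 and 5 stood apart above the rest, and 69.8, 45.1 and 67.4 after LPS, a log2 fold change of 4.05 ± 0.29 (SE; edgeR adjusted p = 2.72e-10).

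Ifi211 was again near absent after saline, with 5 counts over 5 libraries and 0 counts in 2 of them, and reached 37.9, 21.9 and 42.7 CPM after LPS, 1397 counts. Its log2 fold change was 8.70 ± 0.40 (SE; edgeR adjusted p = 2.92e-14). Ifi208, at 8 saline and 93 LPS counts, rose by 4.18 ± 0.68 (SE; edgeR adjusted p = 2.20e-05) and Ifi206 by 3.60 ± 0.35 (SE; edgeR adjusted p = 8.94e-09) on the log2 scale. Ifi206 had 0.351, 0.482, 1.01, 1.51 and 0.866 CPM after saline and 12.3, 11.4 and 8.12 after LPS. Ifi213 rose by 3.89 ± 0.47 (SE; edgeR adjusted p = 4.74e-07), from 0.263 to 1.40 CPM after saline to 22, 6.66 and 9.51 after LPS. Replicate 1 carried much of that mean, and without it the log2 fold change of Ifi213 was 3.24.

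In MIA offspring Ifi203 and Mndal had few counts. Ifi203 averaged 0.194 ± 0.243 CPM (SD, n = 5) and 0.165 ± 0.183 (SD, n = 3), from 14 and 7 counts, and Mndal had 1 count over 5 saline and 8 counts over 3 LPS libraries. With no filter, Mndal's log2 fold change was 3.02 ± 1.43 (SE; edgeR adjusted p = 0.142), and that of Ifi203 was -0.24 ± 1.00 (SE; edgeR adjusted p = 0.964). Neither passed the test.

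**Figure D3:**
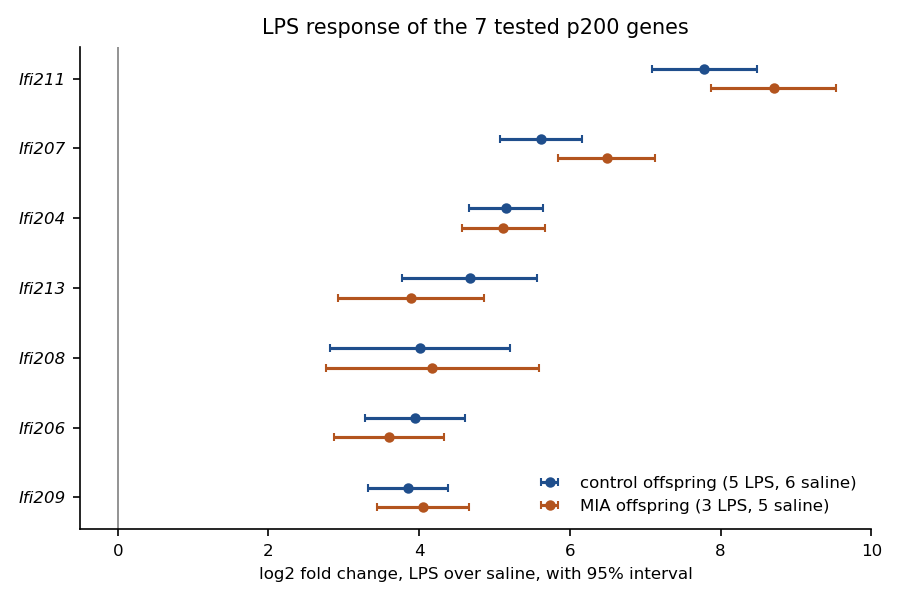
Log2 fold change of LPS over saline with its 95% interval for the 7 tested genes, in control offspring (blue, 5 LPS and 6 saline libraries) and MIA offspring (orange, 3 and 5). All values lie between 3.60 and 8.70, Ifi211 has the largest in both and no interval reaches 0.

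Because the members rose by different factors, the makeup of the family changed with LPS. Ifi209 made up 30.9 ± 10.1% of the summed CPM in control saline libraries (SD, n = 6) and 14.1 ± 1.56% in control LPS libraries (SD, n = 5), and the ranges, 21.4 to 43.6% and 12.5 to 15.8%, did not meet. Ifi207 moved the other way, from 17 ± 5.40% to 28.6 ± 2.21%, also without overlap (at most 21.9% and at least 25.3%). Ifi211 went from 0.866 ± 0.619% to 6.78 ± 2.11%, and Ifi204 from 36.7 ± 2.99% to 44.2 ± 1.67%, again without overlap (at most 40.5% and at least 42.8%). In MIA offspring Ifi209 went from 29.9 ± 5.91% (SD, n = 5) to 14.5 ± 1.76% (SD, n = 3), Ifi207 from 12.8 ± 4.57% to 32.2 ± 5.32% and Ifi211 from 0.505 ± 0.567% to 8.13 ± 1.97%. There Ifi204 stood at 39.5 ± 2.61% and 38.9 ± 3.28%, with ranges that overlapped. These shares were described after the values had been seen and were not tested, and a sum over genes gives longer transcripts more weight.

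**Figure D4:**
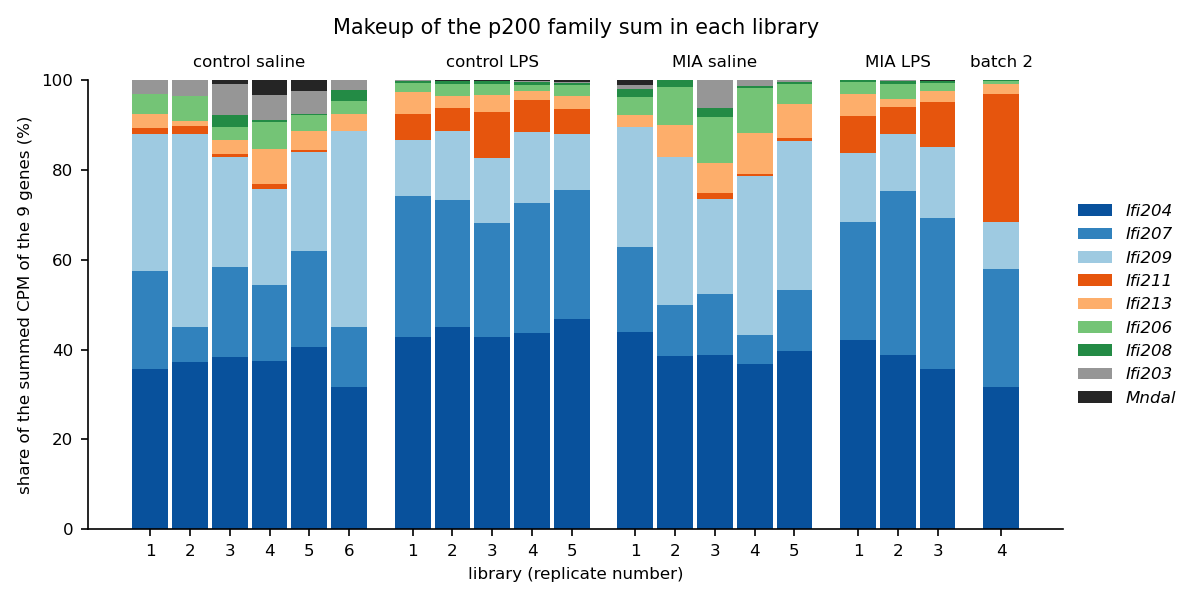
Share of each gene in the summed CPM of the 9 genes, 1 bar per library in replicate order within each group, with the batch 2 library at the right. The Ifi209 part shrinks and the Ifi207 part widens from saline to LPS in both maternal groups, and the Ifi211 part reaches 28.7% in the batch 2 library against at most 10.3% elsewhere.

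Set per kilobase of exon (CPM per kb, GENCODE exon union), which allows levels of different genes to be compared, the order changed too. In control saline libraries Ifi204 (1.37 ± 0.442 CPM per kb, SD, n = 6) and Ifi209 (1.09 ± 0.267) were next to each other with overlapping ranges, followed by Ifi207 (0.664 ± 0.313) and Ifi206 (0.180 ± 0.0626), each overlapping the gene above it. After LPS in control offspring Ifi204 (48.7 ± 5.85, SD, n = 5) stood above Ifi207 (32.8 ± 4.77) without overlap, and both stood above Ifi209 (15.7 ± 2.84) and Ifi211 (14.9 ± 4.73), which overlapped each other. Ifi206 (2.79 ± 0.872) and Ifi213 (1.91 ± 0.742) followed with overlapping ranges, then Ifi208 (0.445 ± 0.0956). Mndal (0.121 ± 0.143) and Ifi203 (0.0940 ± 0.0466) came last. MIA offspring had the same first 2 after LPS, Ifi204 at 45.4 ± 7.91 (SD, n = 3) and Ifi207 at 38.5 ± 3.39, here with overlapping ranges. With the longest transcript as length, Ifi213 took a place above Ifi206 after LPS in both maternal groups.

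The third question was whether maternal immune activation altered the family. After saline, 0 of the 7 tested members were called by edgeR, 0 had an unadjusted p under 0.05, and 0 were called by DESeq2 or limma-voom, beside 0% of genes called by edgeR and 2.82% at an unadjusted p under 0.05. The MIA minus control values ran from -0.64 to 0.74 on the log2 scale. Ifi207 had the lowest, -0.64 ± 0.31 (SE; 95% interval -1.29 to 0.00; edgeR adjusted p = 1.00, unadjusted p = 0.0503), and Ifi213 the highest, 0.74 ± 0.51 (SE; -0.32 to 1.79; edgeR adjusted p = 1.00). Ifi204 was at -0.07 ± 0.24 (SE; -0.56 to 0.43; edgeR adjusted p = 1.00), the narrowest interval of the 7. Ranges of MIA and control libraries overlapped in all 7. Of the untested pair, Ifi203 had 14 counts in 5 MIA saline and 56 in 6 control saline libraries, a log2 difference of -1.61 ± 0.78 with no filter (SE; edgeR adjusted p = 0.934), with the libraries between 0 and 0.608 CPM in MIA and between 0.232 and 1.32 in control offspring. Mndal had 1 count and 14, a log2 difference of -2.77 ± 1.29 with no filter (SE; edgeR adjusted p = 0.934). Without the filter the unadjusted edgeR p was 0.0417 for Ifi203 and 0.0356 for Mndal. Their 95% intervals ran from -3.16 to -0.06 and from -5.36 to -0.19, and neither gene passed the adjusted test.

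After LPS, 0 of 7 members were called between MIA and control offspring by edgeR, DESeq2 or limma-voom and 0 had an unadjusted p under 0.05, beside 0% and 5.6% of genes by edgeR. The values lay between -0.10 (Ifi204; SE 0.24; 95% interval -0.60 to 0.39) and 0.37 (Ifi211; SE 0.24; -0.13 to 0.86), with edgeR adjusted p from 0.932 to 0.999. In Ifi207 the MIA LPS libraries had 120, 132 and 144 CPM and the control LPS libraries 98.7 to 130 CPM, so 2 of 3 MIA libraries lay above the control range. No member separated the groups.

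The difference of the LPS responses, MIA minus control, was not called for any member by edgeR, DESeq2 or limma-voom, and 1 of 7, Ifi207, had an unadjusted p under 0.05, beside 0% of genes called and 3.34% at an unadjusted p under 0.05. Ifi207's difference was 0.88 ± 0.40 (SE; 95% interval 0.05 to 1.70; unadjusted p = 0.0388, edgeR adjusted p = 1.00). It combines the lower saline and the higher LPS values given above. Ifi211 was at 0.92 ± 0.84 and Ifi213 at -0.78 ± 0.66 (-1.43 without MIA LPS replicate 1, still not called), whereas Ifi204 was at -0.04 ± 0.34 (SE; -0.74 to 0.66). The intervals leave room for changes of 1.58-fold upward in Ifi204 and of 6.25-fold upward in Ifi211, so small differences between the maternal groups could not have been seen.

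**Figure D5:**
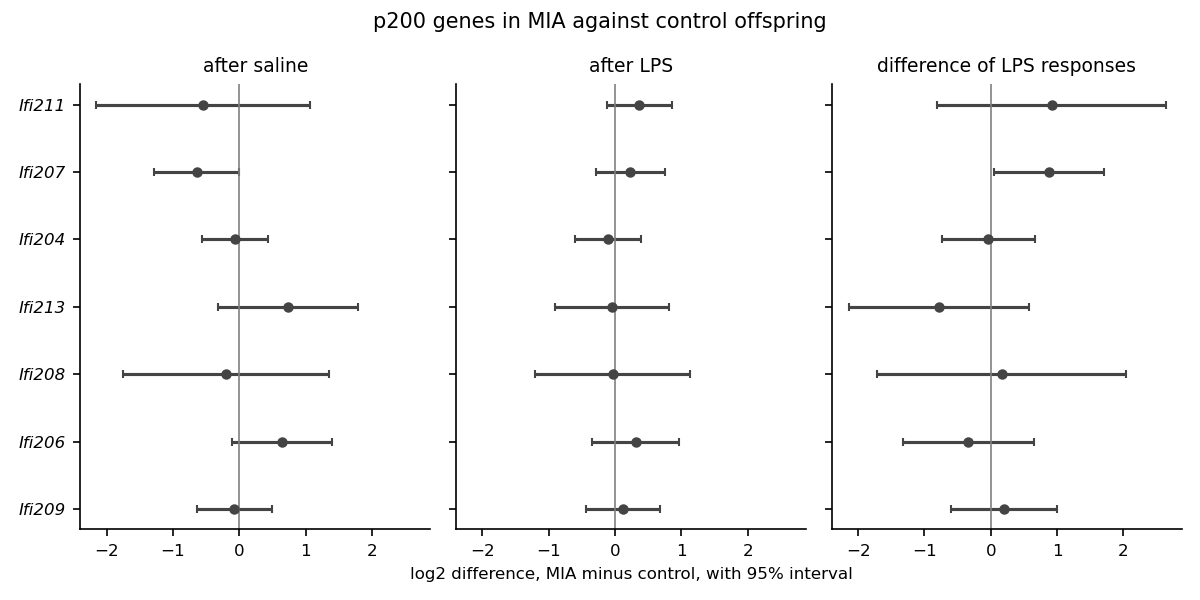
Log2 difference between MIA and control offspring with its 95% interval for the 7 tested genes, after saline, after LPS, and as the difference of the LPS responses. The intervals hold 0 in 20 of 21 cases, the exception being the difference of responses of Ifi207 (0.05 to 1.70), which did not pass the adjusted test.

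The order of libraries within a group differed between members. Control LPS replicate 2 was the highest of its group in 4 of the 7 tested members and replicate 5 the lowest in 4. Among MIA LPS libraries replicate 1 was highest in 4 and lowest in 1, replicate 2 highest in 1 and lowest in 4, and replicate 3 highest in 2 and lowest in 2. MIA LPS replicate 2 had the highest summed astrocyte markers of the batch 1 LPS libraries, 225 CPM, and the highest oligodendrocyte sum, 90.1 CPM, whose part in its lower values was not tested. Control saline replicate 3 lay above its group's median in all 7, and replicate 2 of that group was highest in 2 and lowest in 2. MIA saline replicate 5 was highest in 4 and lowest in 1.

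The batch 2 library, MIA LPS replicate 4, stood apart. Its family sum was 204 CPM, below the 342 to 459 of the 8 other LPS libraries. Ifi204 (64.8 CPM), Ifi207 (53.7), Ifi209 (21), Ifi213 (4.32), Ifi206 (1.32) and Ifi208 (0.360) all lay under the lowest batch 1 LPS library. For Ifi206 that is within the MIA saline range of 0.351 to 1.51 CPM, and for Ifi208 it is below the highest control saline library, at 0.486. This library had counts in 12264 genes, against 18003 to 19562 in the batch 1 libraries of the fit, and the part of that in its values was not tested. Ifi211 went the opposite way, at 58.6 CPM from 488 counts, above the highest batch 1 library at 42.7, and made up 28.7% of the family sum. Batch, library and any property of that mouse cannot be told apart. In the library titled excluded, a MIA saline library, the family summed to 10.7 CPM, within the range of the other MIA saline libraries, but from 56 counts. There Ifi204 was at 1.92 CPM, below the others at 2.17 to 7.46, and made up 17.9% of the sum against 36.8 to 43.8%. Ifi206 (0.192 CPM, 1 count) was also below the others and Ifi208 (0.383, 2 counts) above them, an order that rests on very few counts.

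The table held 5 other p200 genes, of which 2 passed the filter. Ifi205, a close relative of Ifi211 in sequence had 2 counts in control saline libraries and 2.27 ± 1.18 CPM in control LPS libraries (SD, n = 5). Its fitted log2 fold changes, which rest on so few saline counts, were 6.16 ± 0.73 (SE; edgeR adjusted p = 1.21e-07) in control and 5.52 ± 0.77 (SE; edgeR adjusted p = 2.41e-06) in MIA offspring. Aim2, the p200 protein that builds an inflammasome on cytosolic DNA and whose gene lies outside the cluster stretch above, was already at 44.1 ± 3.21 CPM in control saline libraries (SD, n = 6). It stood at 51.5 ± 3.51 CPM after LPS (SD, n = 5), a log2 fold change of 0.22 ± 0.12 that did not pass the test (SE; edgeR adjusted p = 0.125), and MIA offspring gave 0.29 ± 0.14 (SE; edgeR adjusted p = 0.103). Ifi214, Ifi202b and Ifi203-ps did not pass the filter. Ifi214 averaged 0.442 ± 0.395 CPM (SD, n = 6) after saline and 0.523 ± 0.386 (SD, n = 5) after LPS in control offspring, and 33.4% of the words of Ifi209, which rose, are also found in it.

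Around the family, 23 genes of cytosolic DNA sensing were tested. In control offspring 10 were called higher and 1 lower by edgeR after LPS, with a median log2 fold change of 0.46, and in MIA offspring 8 higher and 1 lower, with a median of 0.46. Over all genes tested 23.3% were called higher and 21.3% lower in control offspring, and 20.8% and 18.3% in MIA offspring. The largest rises in control offspring were in Zbp1, a sensor of left-handed nucleic acid (5.28 ± 0.39, edgeR adjusted p = 7.14e-10), Trex1, a DNA exonuclease (2.12 ± 0.18, edgeR adjusted p = 4.38e-10), and Samhd1, a dNTP hydrolase (1.69 ± 0.15, edgeR adjusted p = 1.16e-09). Tmem173, which encodes STING, the adaptor downstream of p204, fell in control offspring by 1.20 ± 0.21 on the log2 scale (edgeR adjusted p = 5.61e-05), where saline libraries averaged 186 ± 18.5 CPM (SD, n = 6) and LPS libraries 81.1 ± 27.0 (SD, n = 5). It fell by 1.69 ± 0.27 on the log2 scale in MIA offspring (edgeR adjusted p = 1.98e-05). Cgas, the enzyme that makes the second messenger for STING, was at 0.26 ± 0.17 in control offspring (edgeR adjusted p = 0.243).

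Of 17 tested genes of type I interferon signalling, 8 were called higher and 2 lower in control offspring, and 8 higher and 1 lower in MIA offspring, with medians of 0.41 and 0.37, beside those same shares over all genes (23.3% and 21.3%, 20.8% and 18.3%). Irf7, the interferon-inducible amplifier of the response (3.45 ± 0.27, edgeR adjusted p = 2.16e-10), Usp18, a feedback inhibitor at the receptor (3.19 ± 0.33, edgeR adjusted p = 5.54e-08), and Stat2 (2.44 ± 0.19, edgeR adjusted p = 2.14e-10) rose most. Irf9, an interferon regulatory factor, rose by 0.99 ± 0.10 (edgeR adjusted p = 1.85e-08). Pias1 changed by -0.33 ± 0.10 (edgeR adjusted p = 0.00748) and Irf5 by -0.31 ± 0.11 (edgeR adjusted p = 0.0295). The receptor gene Ifnar1 was at 0.01 ± 0.10 (edgeR adjusted p = 0.975). Ifnb1, the interferon beta gene, did not pass the filter, with 0 counts in the 6 control saline libraries and 18 over the 5 control LPS libraries. In MIA offspring it had 6 and 9 counts.

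Markers of other cells of the blood moved in the same comparison. Of 6 tested monocyte markers 5 rose and 1, Ccr2, fell in each maternal group, and the sum of the 7 listed went from 4.67 ± 1.10 CPM (SD, n = 6; 3.45 to 6.30) to 31.2 ± 14.5 (SD, n = 5; 17.4 to 52.2) in control offspring and from 4.33 ± 1.45 (SD, n = 5; 2.54 to 5.94) to 24.4 ± 3.36 (SD, n = 3; 20.7 to 27.3) in MIA offspring. Ly6c2, Chil3 and F10 were among those at 0 in all MIA saline libraries. Of 10 neutrophil markers 7 rose and 1 fell in control and 9 rose and 1 fell in MIA offspring. Their sum ran from 157 to 233 CPM in control saline, 114 to 176 in control LPS, 172 to 196 in MIA saline and 100.1 to 203 in MIA LPS libraries, with Mmp8 and Retnlg at 0 in the saline libraries of both maternal groups. Csf3r, which fell, held most of that sum after saline (180 ± 22.1 CPM in control saline, SD, n = 6). The other 9 summed to 0.155 to 19.6 CPM in control saline, 50.4 to 119 in control LPS, 0.200 to 0.321 in MIA saline and 38.2 to 117 in MIA LPS libraries, a split made after the values were seen. The lymphocyte sum was at most 0.408 CPM in any library, with Cd3e and Nkg7 at 0 in all 4 groups. The part of these cells in the rise of the p200 genes was not tested, and in bulk RNA fewer cells of a type and less RNA per cell cannot be told apart.

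The genes whose pattern over the 19 batch 1 libraries was most like the mean of the 7 tested members were found by the root mean square difference of centred log2 CPM. Gm-numbered, Rik and unnamed rows were left out of the naming. The nearest of the rest were Gbp2, a guanylate-binding protein (0.41), Ms4a6c (0.41) and Ms4a8a (0.44), membrane proteins of the MS4A family, Lilrb4a, an inhibitory receptor (0.46), and Adamtsl4 (0.46). The median over the 14734 other genes was 2.40, and the members' own values ran from 0.29 in Ifi204 to 1.17 in Ifi211. Each member is part of the mean it was set against, which lowers its value. Gbp2 went from 1.92 ± 1.01 CPM (SD, n = 6) to 51.5 ± 9.07 (SD, n = 5) in control and from 1.59 ± 0.561 (SD, n = 5) to 44.2 ± 3.70 (SD, n = 3) in MIA offspring. Ms4a6c went from 11.4 ± 1.62 to 388 ± 112 CPM in control offspring. Ms4a8a had 0 counts in all 11 saline libraries and 257 over the 5 control LPS libraries. Log2 CPM was taken with a prior count of 2, which alone sets the saline values of Ms4a8a. Its place among the nearest genes therefore depends on that setting, and it passed the filter only through LPS libraries.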

How the data were processed

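Values deposited by the authors are estimated counts for each gene in 21 libraries, with no scaling, and the submitters' processing notes name RSEM, STAR and DESeq2 without versions or roles. Genome build, annotation, strandedness and sharing of reads among copies were not given in the sources used here. Per the labels' protocols libraries came from 5 ng of RNA with 9 PCR cycles. Counts were rounded. Symbols, coordinates and exon lengths came from GENCODE M21 (GRCm38), which matched 55227 of 55487 identifiers without their version, and no member was left unmatched. Mndal's identifier had a later version in the table, so its exon length is approximate.

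The test was edgeR 4.0.16 (R 4.3.3), quasi-likelihood, robust, TMM, with a mean per group plus batch over 20 libraries (15 residual degrees of freedom). A low-count filter (filterByExpr by group, minimum count 10, minimum total 15) kept 14741 genes. Calls are Benjamini-Hochberg adjusted p under 0.05 over these genes. SE is the absolute log2 fold change over the square root of F. Group means are TMM-scaled CPM over batch 1 libraries. The test was checked on simulated data. No pair of libraries in a group differed by less than the sampling noise (smallest chi-square over degrees of freedom 5.95, 46 pairs). The labels name no molecular identifiers.

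Members and gene lists were chosen with earlier results of these data known, so no list is independent support. Genes named were all members and other p200 genes, the 3 largest rises and 2 largest falls called in each pathway list in control offspring, Aim2, STING, Cgas, Irf7 and Ifnb1, and the 5 genes closest in pattern. For pattern, Gm-numbered, Rik and unnamed rows were left out. Irf9, Ifnar1 and the markers named were chosen after their values were seen. Alternatives were other scalings, filters, DESeq2 1.42.0, limma-voom (limma 3.58.1), blocks by replicate or ID number, and leaving out each library. Some items of the lists are not reported here. Promoter sequences are RefSeq's (GRCm38.p6).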

Additional observations from a re-analysis of the deposited data

Results flagged for a closer look

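Dixon's test was run on 27 sets of 4 to 10 libraries of 1 gene and group. Chance flags about 1 in 20 such sets where values are normally spread, a rate that does not hold for counts near 0. The test marked 3. Ifi211 in control LPS replicate 3 was 41.0 CPM, and the next highest library of that group was at 25.1. Mndal in control LPS replicate 5 was 1.36 CPM from 17 counts, against 0.268 in the next library. Mndal in MIA saline replicate 1 was 0.0877 CPM, a single count, where the other 4 libraries were at 0, a pattern the test always marks. Both Mndal values belong to a gene that overlaps Ifi211 and Ifi203 and has transcript sequence in common with them. The part of that in these values was not tested.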

How the results depend on the processing

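The 7 LPS calls in each maternal group held under all alternatives run (224 values in each, log2 fold changes 3.73 to 8.19 in control and 3.24 to 9.04 in MIA offspring), and 0 members were called between maternal groups under any. Genes called over the whole table moved as follows. For the difference of responses, 1 gene was called with the ID number as a random block, and 0 to 2 with each library left out. After saline DESeq2 called 6, none a member. After LPS, 0 to 4 were called with each library left out, 4 without MIA LPS replicate 1 and 3 without replicate 3. Uncalled member differences near 0 changed sign. For the difference of responses Ifi204 was 0.060 with the library titled excluded kept in and 0.15 with the replicate block (-0.21 to 0.21 leaving out libraries). Ifi208 was -0.49 and -0.57 by limma-voom with weights and with the random block, -0.084 with the excluded library and -0.35 with the replicate block (-0.77 to 0.45). After saline Ifi204 was 0.076 with weights (-0.31 to 0.11), Ifi208 0.31, 0.54, 0.047 and 0.077 in those 4 settings (-0.49 to 0.73) and Ifi209 -0.37 to 0.085. After LPS Ifi208 ran from -0.24 to 0.079, and Ifi213 was 0.15 with weights (-0.69 to 0.27). The cause was not tested. Whether replicate numbers pair the samples was not settled. Correlations ran from -0.14 to 0.22, over 0.1 in 4 of 16 pairs, and 7 of 16 libraries were closest to their own number. With the replicate block 6298 and 5535 genes were called for LPS in control and MIA offspring, and all 7 members stayed called. The ID number as a fixed block, which could not be fitted between maternal groups, called 5754 and 5683 genes and the 7 members. Few counts limit Mndal and Ifi208, and the 3 MIA LPS libraries limit the contrasts that use them.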
